A study of Mus musculus with 3 samples.

Results

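Melanocytes, the pigment cells of the skin, were described in 3 single-cell RNA libraries of mouse ear. They were chosen by their own expression, as barcodes with at least 4 UMIs of Dct, Pmel, Mlana and Tyrp1 together and at least 2 of these genes detected. In addition they had no UMI of Ptprc, which encodes CD45, no UMI of Cdh5, an endothelial cadherin, and less than 0.2% of their UMIs from Krt5 and Krt14, the basal keratins. A UMI is 1 tagged RNA molecule. The rule found 81 melanocytes among 37961 barcodes that passed the filter, or 0.213%: 27 of 12941 in adult Lang-DTA, 38 of 12621 in adult WT and 16 of 12399 in young WT.

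The adult Lang-DTA library came from 8-week-old hemizygous Langerin-DTA mice, in which the Langerin promoter drives diphtheria toxin A in Langerhans cells, the dendritic cells of the epidermis. It pooled 4 males and 6 females. The adult WT library came from 6 male and 4 female C57BL/6J mice of 8 weeks, and the young WT library from 5 male and 3 female C57BL/6J mice of 4 weeks. All mice were untreated. The labels call the WT controls of Langerin-DTA experiments littermates and give C57BL/6J as their genotype. From each pool lymphatic endothelial, blood endothelial, CD45+ and CD45-CD31- cells were sorted and mixed at equal parts, and melanocytes belong to the last gate. A share of melanocytes therefore describes this mixture and not the skin. Each condition is 1 library, so no test between conditions was possible. The intervals given are exact 95% intervals that cover counting error only, and they do not hold the spread between mice.

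The 3 libraries held 124590777 UMIs in 13540 barcodes of adult Lang-DTA, 128595813 in 13600 of adult WT and 137441575 in 12864 of young WT. Cd207, the gene of Langerin, had 87 UMIs in the kept barcodes of adult Lang-DTA, 17136 in adult WT and 25419 in young WT, and none in melanocytes. A barcode sequence found in 1 library was also found in another for 89, 86 and 97 barcodes, in the same order of libraries, and for 0 melanocytes.

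Melanocytes arise from the neural crest. They make melanin from tyrosine in melanosomes, organelles related to lysosomes, with the enzymes tyrosinase (Tyr), tyrosinase-related protein 1 (Tyrp1) and dopachrome tautomerase (Dct) on fibrils of the protein Pmel. The transcription factor Mitf activates these genes, and Sox10 and Pax3 activate Mitf. Growth and survival depend on the receptor Kit and its ligand from keratinocytes. In mouse skin most melanocytes live in hair follicles and pass through the hair cycle, and ear skin also holds them between the follicles and in the dermis.

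Mitf binds a short sequence known as an E-box with the letters CATGTG, so the promoters of the pigment genes that these cells hold are shown around it. Promoters were read from RefSeq on GRCm38.p6, from 250 bases before to 50 bases after each start, on both strands. Of the 15 genes of the list of melanin synthesis and melanosome proteins 11 were matched, and 7 of the 11 (63.6%) held CATGTG: Tyr, Tyrp1, Dct, Oca2, Slc24a5, Slc7a11 and Trpm1. The same letters were in 14.2% of all 32851 promoters and in those of 15.9% of all 27025 genes. Among the 23 matched genes of melanosome sorting and transport, 3 (13%) held it. The related E-box CACGTG was in 2 of the 11 melanin genes, in 8 of the 23 transport genes (34.8%), in 7.15% of all promoters and in those of 8.09% of all genes. Each sequence below is written on the strand of its gene, 5′ to 3′, with the 6-base motif in capitals, as CATGTG or as its reverse complement CACATG.
Tyr (chr7:87493506-87493555, minus strand, motif starting 21 bases upstream of the start): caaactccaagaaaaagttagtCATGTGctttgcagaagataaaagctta
Tyrp1 (chr4:80834145-80834194, plus strand, 46 bases upstream): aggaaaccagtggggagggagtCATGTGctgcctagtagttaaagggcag
Dct (chr14:118052369-118052418, minus strand, 150 bases upstream): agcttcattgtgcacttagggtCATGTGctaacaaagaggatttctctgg
Trpm1 (chr7:64153672-64153721, plus strand, 141 bases upstream): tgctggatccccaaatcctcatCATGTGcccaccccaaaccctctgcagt
Slc24a5 (chr2:125068092-125068141, plus strand, 13 bases upstream): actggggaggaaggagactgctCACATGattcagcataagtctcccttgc
The 3 melanin enzymes share the 10 bases GTCATGTGCT, which occur in 61 of the 32851 promoters (0.186%). This stretch was picked as the longest that the windows of these 3 genes have in common, so all 3 hold it by choice. The 7-base form TCATGTG, which contains the motif, was in 3.77% of all promoters. A match describes the letters and does not show that a factor binds there.

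The label fits the cells by genes that the rule did not read, although these come from the same cells that the rule chose and are given as a description. Mitf had a UMI in 76 of the 81 melanocytes (93.8%), Tyr in 55 (67.9%), Sox10 in 43 (53.1%), Pax3 in 80 (98.8%) and Kit in 75 (92.6%). Every melanocyte had at least 1 of these 5 genes, and 77 had at least 3. By library, Mitf was detected in 92.6% of melanocytes of adult Lang-DTA, 92.1% of adult WT and 100% of young WT. Endothelial cells had a Mitf UMI in 5.77%, 4.99% and 8.05% of cells at median depths of 9053, 8173 and 9561 UMIs. The melanocytes were shallower, with medians of 3105, 3579 and 4004 UMIs. At 3000 UMIs per cell, which 14, 25 and 9 melanocytes reached, Tyr was detected in 71.4%, 84% and 88.9% of them. In endothelial cells thinned alike Tyr was detected in 0.0225%, 0.024% and 0.0441%. In each library the share of melanocytes with Tyr stood far above that of endothelial cells.

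The 4 marker genes together gave a median of 50 UMIs per melanocyte in adult Lang-DTA, 57 in adult WT and 47 in young WT, with a lowest value of 12, 9 and 8 and a highest of 142, 209 and 333. All 4 genes were detected in 44 melanocytes, 3 in 26 and 2 in 11. Just outside the rule lay 117 barcodes with 1 to 3 marker UMIs and 9 with 4 or more UMIs of a single marker gene. Of 92 barcodes that met the marker part, 2 were left out for Ptprc, 6 for Cdh5 and 3 for the keratins. Krt5 and Krt14 were both at 0 in 73 of the 81 melanocytes.

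No melanocyte was called a doublet, by calls that marked 5.41% of barcodes in adult Lang-DTA, 5.44% in adult WT and 5.15% in young WT. Markers of keratinocytes, immune cells and erythroid cells were few. In the summed melanocytes the 14 keratinocyte markers had 6, 12 and 8 UMIs, the 8 immune markers 0, 3 and 2, and the 4 erythroid markers 0 in all libraries. Endothelial markers had 33 UMIs in adult Lang-DTA, 7 in adult WT and 0 in young WT, and fibroblast markers 2, 19 and 57. These came mostly from single cells. A Lang-DTA melanocyte held 26 of the 33 endothelial UMIs, and a young melanocyte held 56 of the 57 fibroblast UMIs. In all, 9 melanocytes (2, 4 and 3 by library) held at least 3 UMIs of another type's markers, 4 of the 9 through glial genes, and results that rest on them are given with and without them.

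Melanocytes made up 0.209% of kept barcodes in adult Lang-DTA (27 cells, interval 0.138% to 0.303%), 0.301% in adult WT (38 cells, 0.213% to 0.413%) and 0.129% in young WT (16 cells, 0.0738% to 0.209%). Among barcodes with neither Ptprc nor Cdh5, the shares were 0.498% (0.328% to 0.724%), 0.838% (0.593% to 1.15%) and 0.447% (0.256% to 0.724%). Adult WT was highest on both denominators. The intervals of adult Lang-DTA and adult WT overlap on both, and so do those of adult WT and young WT among barcodes with neither gene. The interval of adult WT lies just above that of young WT among all kept barcodes.

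Dct was the most abundant pigment gene, and its product converts dopachrome on the way to eumelanin. Its level was 12756 CPM, counts per 1000000 UMIs, in adult Lang-DTA, 11701 CPM in adult WT and 8344 CPM in young WT melanocytes. Levels in CPM are of the summed UMIs of a library's melanocytes, and as each UMI is counted near the 3′ end they are not divided by gene length. Endothelial cells had 2.47, 2.24 and 0.52 CPM of Dct. Dct led the 4 marker genes in 77 of the 81 melanocytes. The gene lies on chromosome 14 (GRCm38, 118012790 to 118052244, minus strand).

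Pmel, the fibril protein, had 2158 CPM in adult Lang-DTA, 2233 CPM in adult WT and 4126 CPM in young WT melanocytes. Tyrp1 had 1113, 839 and 2142 CPM, and Mlana, a small membrane protein of melanosomes, 602, 487 and 1459 CPM in the same order. Tyr, the rate-limiting enzyme of melanin synthesis, had 613 CPM in adult Lang-DTA, 738 CPM in adult WT and 1169 CPM in young WT. Young WT held the highest summed level of each of these 4 genes, but for Mlana 2 young cells held 80.2% of the UMIs. The median Mlana level of single melanocytes was 208 CPM in adult Lang-DTA, 389 CPM in adult WT and 218 CPM in young WT.

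The ion and solute carriers of melanosomes were lower and more uneven. Slc24a5, a potassium-dependent sodium and calcium exchanger, had 795 CPM in adult Lang-DTA, 406 CPM in adult WT and 1603 CPM in young WT. Oca2 (chromosome 7, 56239760 to 56536518, plus strand), which sets melanosome pH, had 261, 40.6 and 657 CPM, and Slc45a2, another melanosome transporter, 159, 149 and 223 CPM. In adult Lang-DTA Oca2 was found in 4 of 27 melanocytes, and a single cell held 19 of its 23 UMIs. Slc7a11, the cystine carrier that supports pheomelanin, had no UMI in any of the 81 melanocytes, which allows up to 3.70% of such cells with a UMI. Gpnmb, a melanosome glycoprotein that macrophages also express, had 1397, 1306 and 2023.5 CPM. A Gpnmb UMI was also found in 27.7% of endothelial cells of adult Lang-DTA, 3.22% of adult WT and 8.64% of young WT.

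**Figure D1:**
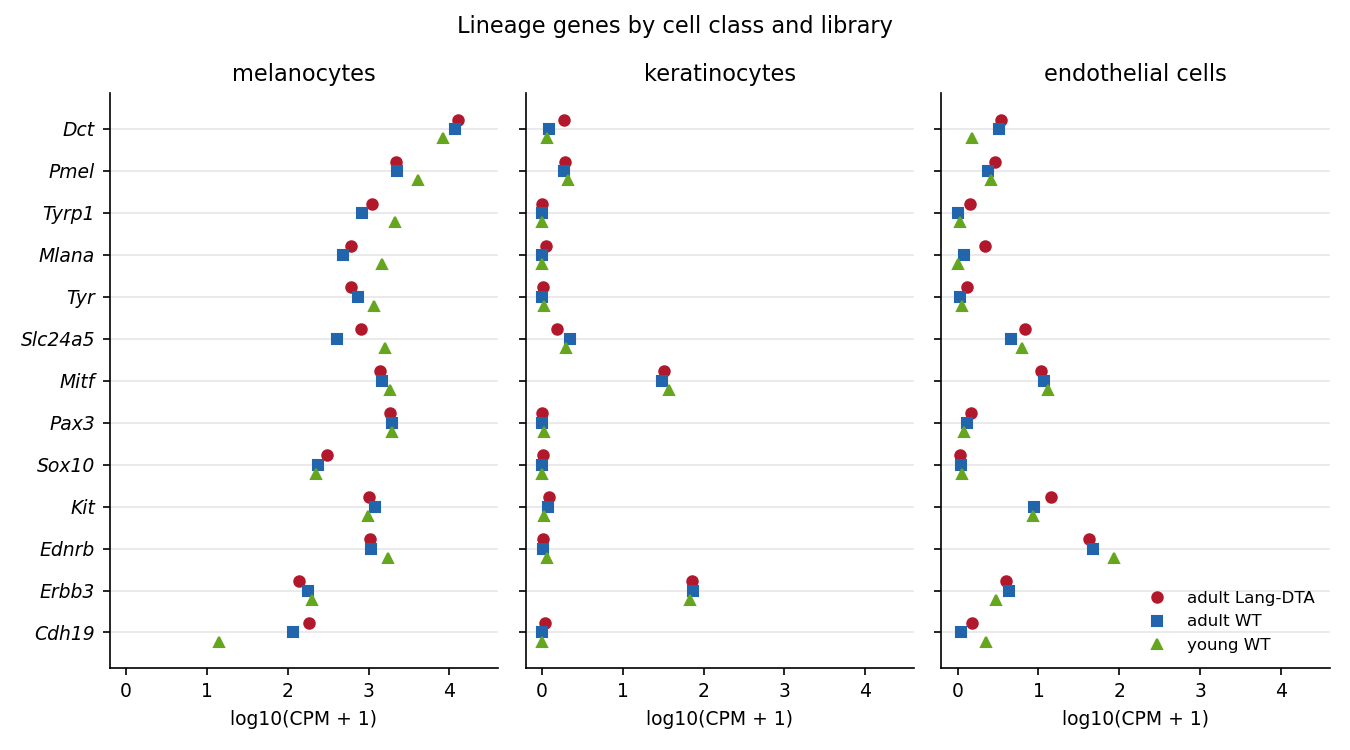
Level of 13 genes, as log10 of CPM + 1, in melanocytes, keratinocytes and endothelial cells of the 3 libraries. Pigment genes are high in melanocytes and near 0 elsewhere, Dct at 12756, 11701 and 8344 CPM in melanocytes of adult Lang-DTA, adult WT and young WT.

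Among all genes, 2976 reached 50 CPM in the melanocytes of every library. Of these, 34.3% in adult Lang-DTA, 36.4% in adult WT and 36.7% in young WT were at least 1.5-fold higher in melanocytes than in the remaining cells, and 607 were so in all 3. The genes named next follow from the choice of the cells and are a description. The 25 genes with the highest ratio included Dct, Tyrp1, Tyr, Pmel, Mlana, Slc45a2 and Trpm1, a cation channel of melanocytes, together with Pax3 and Sox10. Others are not pigment genes. Ptgds, the prostaglandin D2 synthase, had 2351 CPM in adult Lang-DTA, 2612 CPM in adult WT and 4021 CPM in young WT melanocytes, against 1.57, 1.0 and 1.11 CPM in the remaining cells. Fstl4, a follistatin-like secreted protein, had 2329, 2396 and 3416 CPM and was found in 78 of the 81 melanocytes. The unnamed locus Gm12068 had 1579, 1773 and 1459 CPM.

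Further members of the 25 were Mcoln3, a cation channel of endosomes and lysosomes, with 500 CPM in adult Lang-DTA, 467 CPM in adult WT and 499 CPM in young WT, and Glrb, a subunit of the glycine receptor, with 329, 365 and 368 CPM. Gucy2f, a guanylate cyclase best known from photoreceptors, had 261, 196 and 407 CPM. Alx1, a homeobox factor of craniofacial neural crest, had 125, 223 and 131 CPM and was found in 31 cells. Npy, the neuropeptide Y, had 250, 237 and 486 CPM but came from 21 cells only.

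Pax3 had 1852 CPM in melanocytes of adult Lang-DTA, 1976 CPM in adult WT and 1971 CPM in young WT, and 0.662, 0.841 and 0.723 CPM in the remaining cells. Sox10 had 307, 237 and 223 CPM in melanocytes and 0.275, 0.338 and 0.387 CPM in the remaining cells. Both are also genes of other neural crest cells, which are not set beside melanocytes here. Mitf had 1397, 1482 and 1853 CPM in melanocytes. All 8 members of the transcription factor list that reached 50 CPM in every library were at least 1.5-fold over the remaining cells. Foxd3, a factor of the neural crest, had 114, 94.7 and 65.7 CPM, and Cdh19, a cadherin of neural crest cells, 182, 115 and 13.1 CPM. Both rest on few UMIs, and 13.1 CPM in young WT is 1 UMI.

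Among receptors, Kit had 1022 CPM in adult Lang-DTA, 1211 CPM in adult WT and 972 CPM in young WT melanocytes. Ednrb, the endothelin receptor B that melanoblasts need, had 1045, 1083 and 1761 CPM. Erbb3, a neuregulin receptor, had 136, 176 and 197 CPM, and Met, the receptor of hepatocyte growth factor, 182, 393 and 920 CPM. Mc1r, the melanocortin receptor that switches eumelanin on, was near the limit of detection, with 3 UMIs in adult Lang-DTA, 4 in adult WT and 6 in young WT, or 34.1, 27.1 and 78.8 CPM. Ligands of these receptors were scarce in the melanocytes themselves, with summed levels of 34.1 CPM in adult Lang-DTA, 74.4 CPM in adult WT and 39.4 CPM in young WT over 8 genes of the list.

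Of the proteins that carry melanosomes, Myo5a, the motor, had 1318 CPM in adult Lang-DTA, 1326 CPM in adult WT and 2063 CPM in young WT. Its partners were lower. In the adult libraries Rab27a, which ties the motor to melanosomes, had 250 CPM in Lang-DTA and 189 CPM in WT, and the linker Mlph 204 and 169 CPM. Lyst, a regulator of lysosome-related organelles, had 466, 393 and 775 CPM over the 3 libraries.

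Detection of cell adhesion genes differed between cells. Cdh1, the epithelial cadherin that ties melanocytes to keratinocytes, had a UMI in 33 melanocytes (14, 9 and 10 by library), and Cdh2, the neural cadherin, in 20 (6, 9 and 5). Both were found in 9 cells and neither in 37. Over all 81 melanocytes Cdh1 had only 61 UMIs and Cdh2 37, so a cell without a UMI may still express them. Cdh3, the placental cadherin, had 454, 548 and 644 CPM. No melanocyte had a UMI of Mki67 or Top2a, and 11 of 16 proliferation genes were at 0 in all 81. Among endothelial cells, which were deeper, 7.84%, 3.65% and 6.00% had a Mki67 UMI.

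Single melanocytes differed in the balance of the 4 marker genes. These genes chose the cells, and the values are a description. The share of Dct among the marker UMIs of a cell had a lowest value of 54.2%, a median of 81.0% and a highest of 95% in adult Lang-DTA. In adult WT the lowest was 63.5%, the median 77.9% and the highest 97.1%, and in young WT they were 26.7%, 50.4% and 87.0%. The 2 adult libraries overlap over most of their range. In young WT, 10 of 16 cells had a Dct share of 51.9% or less, below each of the 65 adult melanocytes, a limit set from these data, whereas the other 6 were at 73.7% or more. The 10 cells had a median of 4852.5 UMIs and the 6 a median of 3273.5. They included 4 of 4 young cells called female, 3 of 6 called male and 3 of 6 with no call, from Xist and Y-linked UMIs. Without the 2 deepest young cells the count was 8 of 14. All of these values rest on 1 pool of young mice.

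**Figure D2:**
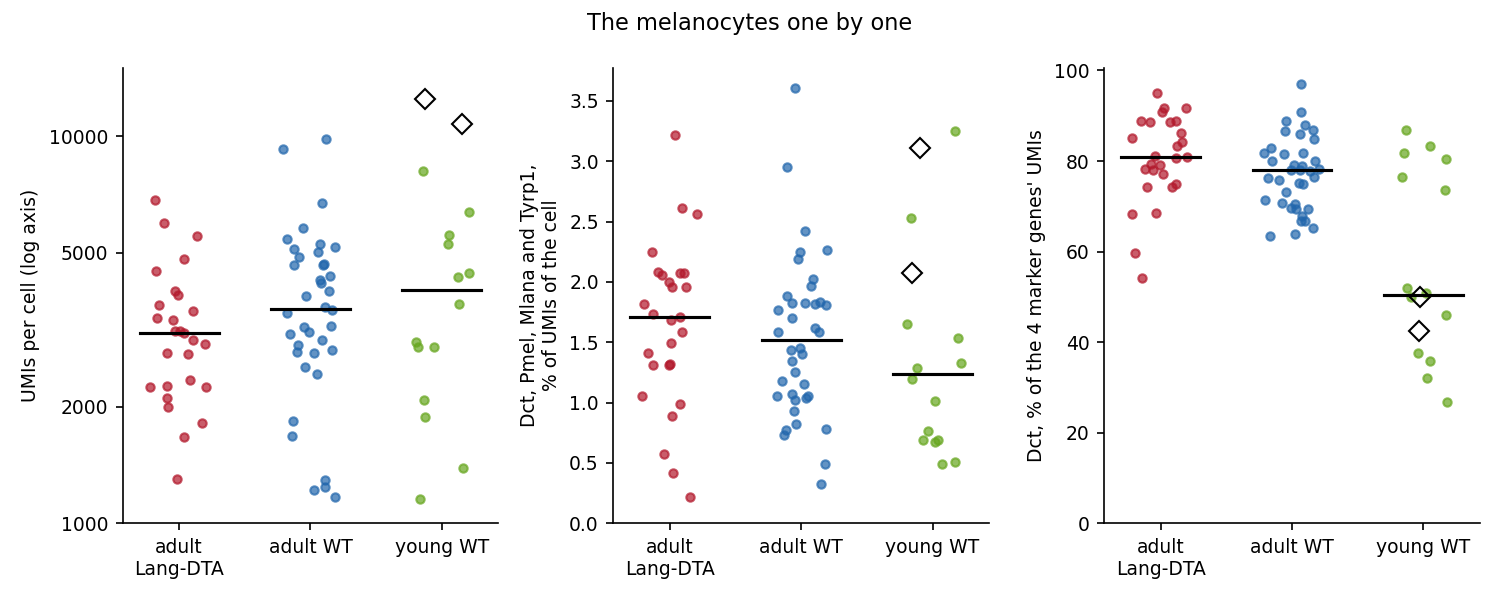
Each point is 1 melanocyte of adult Lang-DTA (27), adult WT (38) or young WT (16). The panels give its UMIs on a log axis, the 4 marker genes as a percent of its UMIs and Dct as a percent of the marker UMIs, with bars at the medians and diamonds for the 2 young cells over 10000 UMIs; Dct medians are 81.0%, 77.9% and 50.4%.

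Adult Lang-DTA melanocytes were set against adult WT melanocytes to see whether the cells differ where Langerhans cells are missing. Of 889 genes with at least 50 UMIs over both libraries, 65 (7.31%) were at least 1.5-fold higher and 92 (10.3%) at least 1.5-fold lower in adult Lang-DTA, with a median log2 ratio of −0.02. In the list of melanin synthesis and melanosome proteins, 1 of 9 measured members was higher and 0 lower, with a median of 0.12. The exception was Slc24a5, at 795 CPM in adult Lang-DTA against 406 CPM in adult WT, a log2 ratio of 0.97 (0.45 to 1.49). Without the melanocytes that hold UMIs of other types its log2 ratio was 0.60 (−0.01 to 1.21). Dct stood at 0.12 (0.01 to 0.23), Pmel at −0.05 (−0.31 to 0.21) and Tyr at −0.27 (−0.76 to 0.22). Dct and Pmel are among the 4 genes that chose the cells. Without those 4 genes 1 of 5 members was higher and 0 lower, with a median of 0.10. Oca2 was below the minimum, with 23 UMIs in adult Lang-DTA and 6 in adult WT.

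The transcription factors had 0 of 6 measured members past 1.5-fold and a median log2 ratio of 0.00, with Mitf at −0.09 (−0.42 to 0.24), Pax3 at −0.09 (−0.38 to 0.19) and Sox10 at 0.37 (−0.41 to 1.14). Of 6 receptors 0 were higher and 2 lower. Met had 182 CPM in adult Lang-DTA and 393 CPM in adult WT, a log2 ratio of −1.11 (−2.01 to −0.29). Bmpr2, a receptor of bone morphogenetic proteins, had 159 CPM and 250 CPM, a log2 ratio of −0.65 whose interval holds 0 (−1.66 to 0.27). Kit stood at −0.24 and Ednrb at −0.05, both with intervals that hold 0. A Lang-DTA cell with UMIs of another type held 28 of the 92 Ednrb UMIs, and without such cells Ednrb stood at −0.50 (−0.96 to −0.06), Met at −1.45 and the median of the 6 receptors at −0.44, against −0.15 with every cell. The measured members of the lists of melanosome transport, cell adhesion, survival, MHC class I, antioxidant and lysosome genes were all within 1.5-fold when every melanocyte was counted. Without the cells that hold UMIs of other types, 1 adhesion gene was higher, and 1 adhesion and 1 lysosome gene were lower.

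**Figure D3:**
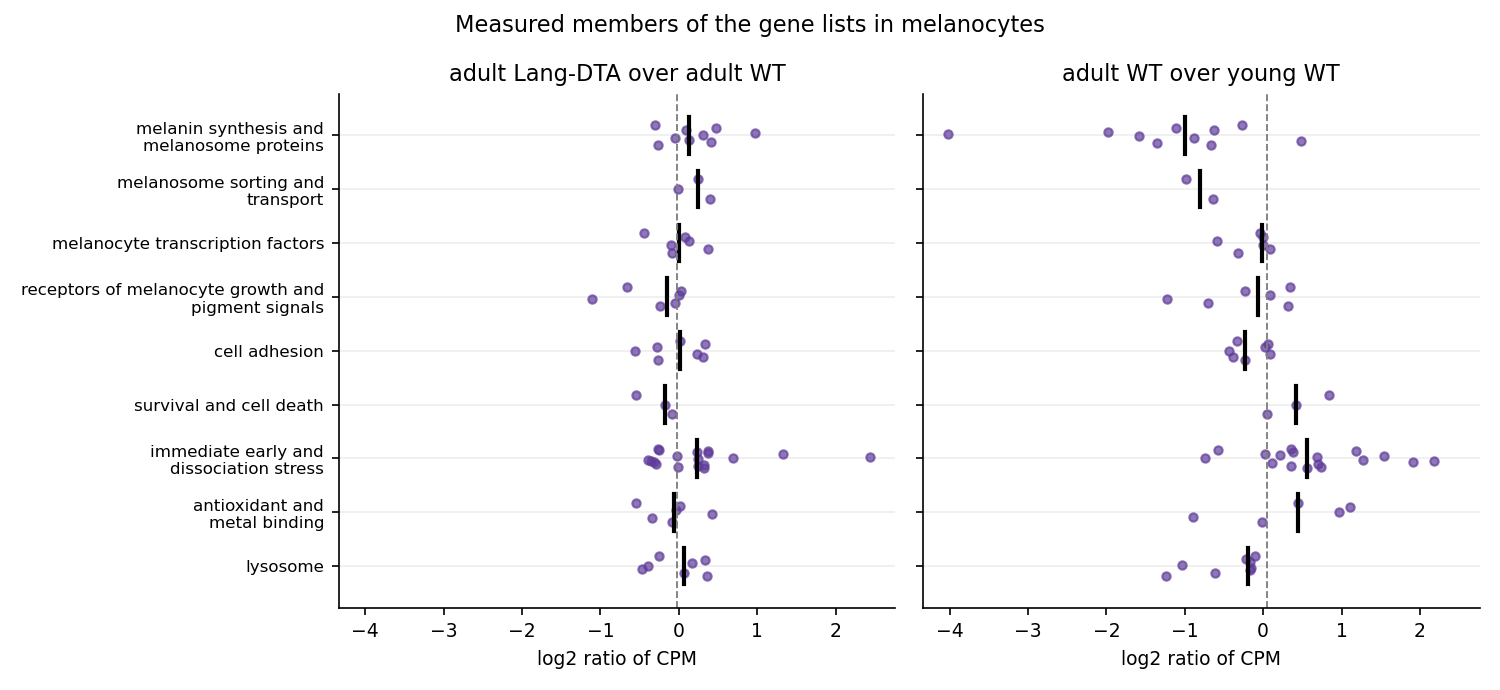
Log2 ratio of each measured member of the gene lists, for adult Lang-DTA over adult WT and adult WT over young WT, with a bar at the list's median and a dashed line at the median of all genes measured. The pigment list has a median of 0.12 in the first comparison and −1.0 in the second.

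Immediate early genes, which respond to stimuli and to tissue dissociation, had 3 of 18 members higher and 0 lower in adult Lang-DTA, with a median log2 ratio of 0.24. Dusp1, a phosphatase of MAP kinases, had 477 CPM in adult Lang-DTA and 88.0 CPM in adult WT, a log2 ratio of 2.44 (1.51 to 3.46). Klf2, a zinc finger factor of endothelium, had 613 CPM and 244 CPM (1.33, 0.70 to 1.98), and Zfp36, which degrades cytokine mRNAs, 579 CPM and 359 CPM (0.69, 0.11 to 1.27). A single Lang-DTA melanocyte carried much of this. It held 22 of the 42 Dusp1 UMIs, 38 of the 54 Klf2 UMIs and 26 UMIs of endothelial markers, 12 of them Lyve1 of lymphatic endothelium. It had 12 UMIs of the 4 marker genes, the lowest value of its library, as had 2 other cells. Without the cells that hold UMIs of other types only Dusp1 remained past 1.5-fold, at 1.69 (0.53 to 2.95) from 20 and 10 UMIs. Klf2 then stood at −0.39 and Zfp36 at 0.39. In keratinocytes and endothelial cells of the same libraries Dusp1 differed by 0.12 and −0.08.

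By the rule for single genes, the 12 that led on the higher side were Dusp1, S100a6, Gstp1, S100a10, Slc24a5, Sort1, Ptprj, Slc6a17, Kmt2a, Ybx1, Gnas and Smap1. S100a6, a calcium-binding protein, had 1215 CPM in adult Lang-DTA and 393 CPM in adult WT, a log2 ratio of 1.63 (1.16 to 2.12), and 1.62 without the cells with other types' UMIs. A single Lang-DTA cell held 43 of its 107 UMIs, and among female-called cells the ratio was 0.53, under 1.5-fold. Gstp1, a glutathione transferase, had 1045 CPM and 501 CPM, a ratio of 1.06 (0.60 to 1.52). S100a10 had 375 CPM and 149 CPM (1.33), but 15 of its 33 Lang-DTA UMIs lay in the cell with endothelial UMIs, and without the cells with other types' UMIs it stood at 0.35 (−0.73 to 1.41). Sort1, a sorting receptor, had 364 CPM and 156 CPM (1.22, 0.41 to 2.06). Ptprj, a receptor phosphatase, had 1068 CPM and 623 CPM (0.78, 0.35 to 1.21). Of the 12, 1 was higher by 1.5-fold in keratinocytes too, Slc6a17 at only 0.387 CPM in adult Lang-DTA and 0.136 CPM in adult WT. In endothelial cells 4 were, S100a6 and S100a10 among them. The others, Slc24a5 and Slc6a17, had only 5.84 and 0.249 CPM in the endothelial cells of adult Lang-DTA. The share of all measured genes past 1.5-fold in these other cells is not given, here or for the other sets of 12 genes below.

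On the lower side the 12 were Setd5, Car14, Rbm5, Xylt1, Ddx5, Pde7b, Timp3, Cfap54, Nasp, Kansl1l, Pnn and Hmcn1. Setd5, a chromatin regulator, had 90.9 CPM in adult Lang-DTA and 372 CPM in adult WT, a log2 ratio of −2.03 (−3.32 to −0.96). Car14, a membrane carbonic anhydrase and 1 of the 25 genes that mark these cells, had 125 CPM and 379 CPM (−1.60, −2.68 to −0.65) and was found in 5 of 27 against 25 of 38 melanocytes. Ddx5, an RNA helicase, rested on the most UMIs of the 12, with 1397 CPM and 2294 CPM (−0.72, −1.03 to −0.41). Rbm5 and Pnn, both of RNA splicing, had 102 CPM against 298 CPM and 125 CPM against 311 CPM. Hmcn1, an extracellular matrix protein, had 307 CPM and 602 CPM (−0.97, −1.65 to −0.34). Of the 12, 1 was lower by 1.5-fold in keratinocytes and 0 in endothelial cells. The rule asked for the same direction in male-called cells, of which adult Lang-DTA had 3.

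**Figure D4:**
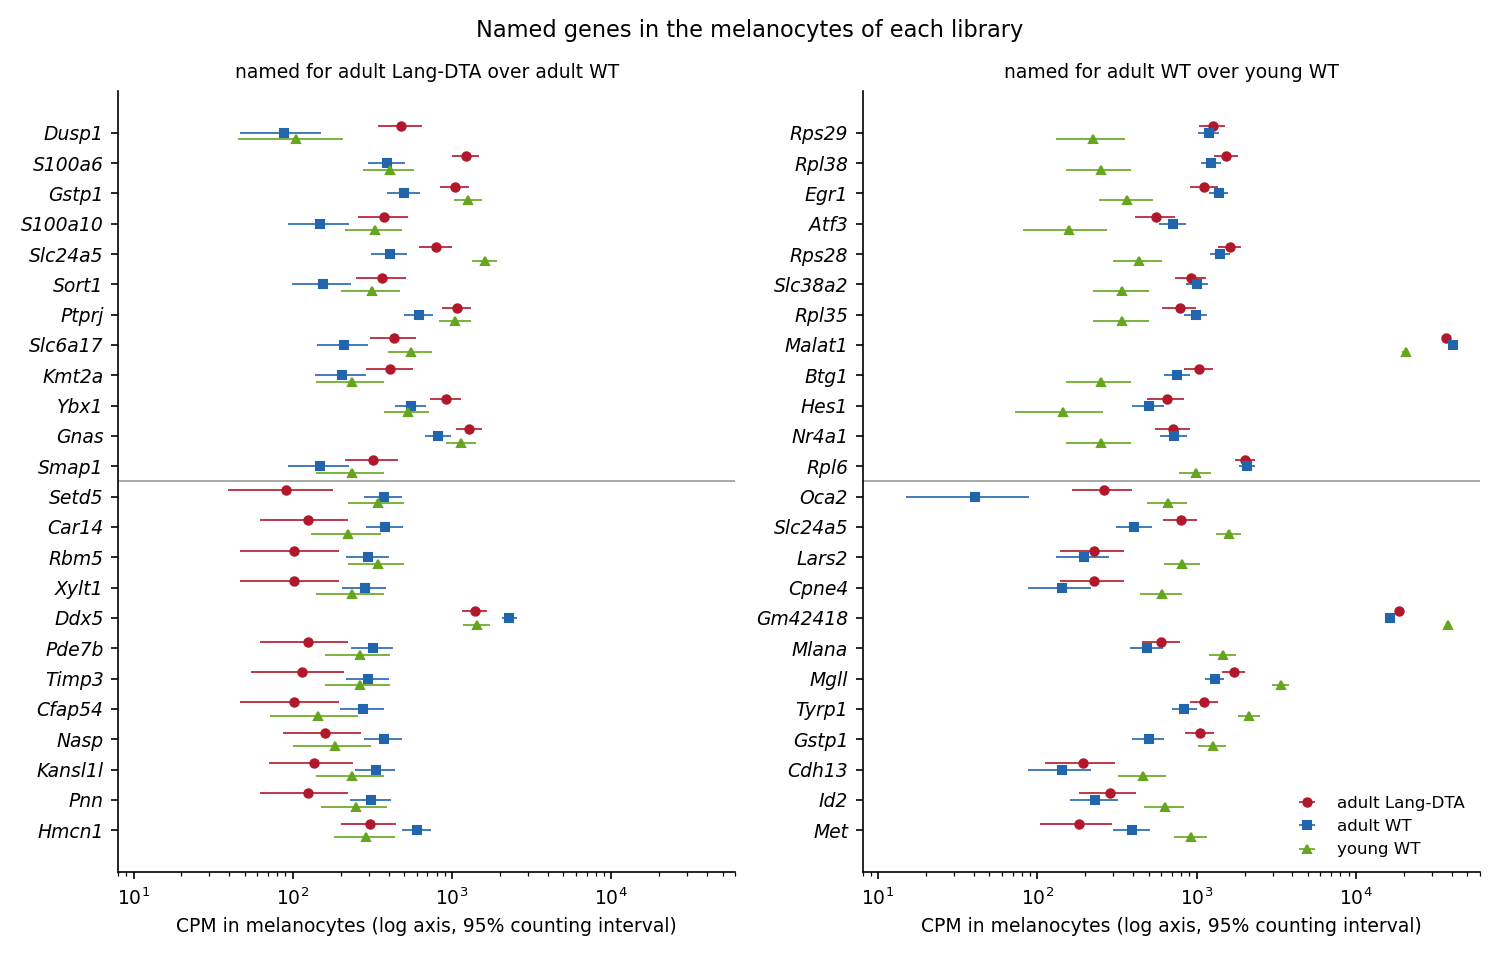
Level in CPM (log axis) of the genes named by the rule in melanocytes of adult Lang-DTA, adult WT and young WT, with exact 95% counting intervals. Setd5 stands at 90.9 CPM in adult Lang-DTA and 372 CPM in adult WT, and Oca2 at 40.6 CPM in adult WT and 657 CPM in young WT.

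Adult WT melanocytes were next set against young WT melanocytes, 8 against 4 weeks of age. This comparison shares the adult WT library with the one above. Of 842 genes measured, 150 (17.8%) were at least 1.5-fold higher and 101 (12%) at least 1.5-fold lower in adult WT, with a median log2 ratio of 0.04. In the pigment list 0 of 10 measured members were higher and 8 lower, with a median of −1.0. Dct, Pmel, Mlana and Tyrp1 chose the cells in both libraries, and without them 0 of 6 were higher and 5 lower, with a median of −0.89. Oca2 had 40.6 CPM in adult WT and 657 CPM in young WT, a log2 ratio of −4.02 (−5.53 to −2.79). Slc24a5 had 406 CPM and 1603 CPM (−1.98, −2.45 to −1.52), Mlana 487 CPM and 1459 CPM (−1.58, −2.03 to −1.14), and Tyrp1 839 CPM and 2142 CPM (−1.35, −1.70 to −1.01). Trpm1 stood at −1.11, Pmel at −0.89, Tyr at −0.66 and Gpnmb at −0.63. Dct went the other way, with 11701 CPM in adult WT and 8344 CPM in young WT, a ratio of 0.49 (0.36 to 0.62) that stays under 1.5-fold.

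Much of this difference lay in 2 young melanocytes of 10719 and 12469 UMIs, the only ones over 10000 UMIs. They held 30.5% of the UMIs of young melanocytes, but 80.2% of those of Mlana, 68.0% of Slc24a5, 62% of Oca2, 48.5% of Tyrp1, 47.1% of Pmel and 43.5% of Dct. Of Mitf they held 16.3% and of Pax3 11.3%. Without them, 1 of the 10 pigment genes was higher and 4 were lower, with a median log2 ratio of −0.39. Of the 6 genes that did not choose the cells, 3 were then lower, with a median of −0.56. Oca2 then stood at −3.14 (−4.76 to −1.76), from 6 adult and 19 young UMIs, under the minimum of 50. A single young cell held 11 of these 19 UMIs. Oca2 is still counted among the lower genes in both tallies. Tyrp1 then stood at −0.92, Slc24a5 at −0.86, Trpm1 at −0.83, Pmel at −0.49 and Tyr at −0.30. Mlana changed sign, to 0.23, and Dct reached 0.79. With every cell weighted equally the median was −0.79, and without the cells that hold UMIs of other types 7 members were lower with a median of −0.81. Oca2 was found in 5 of 38 adult WT and 6 of 16 young WT melanocytes.

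**Figure D5:**
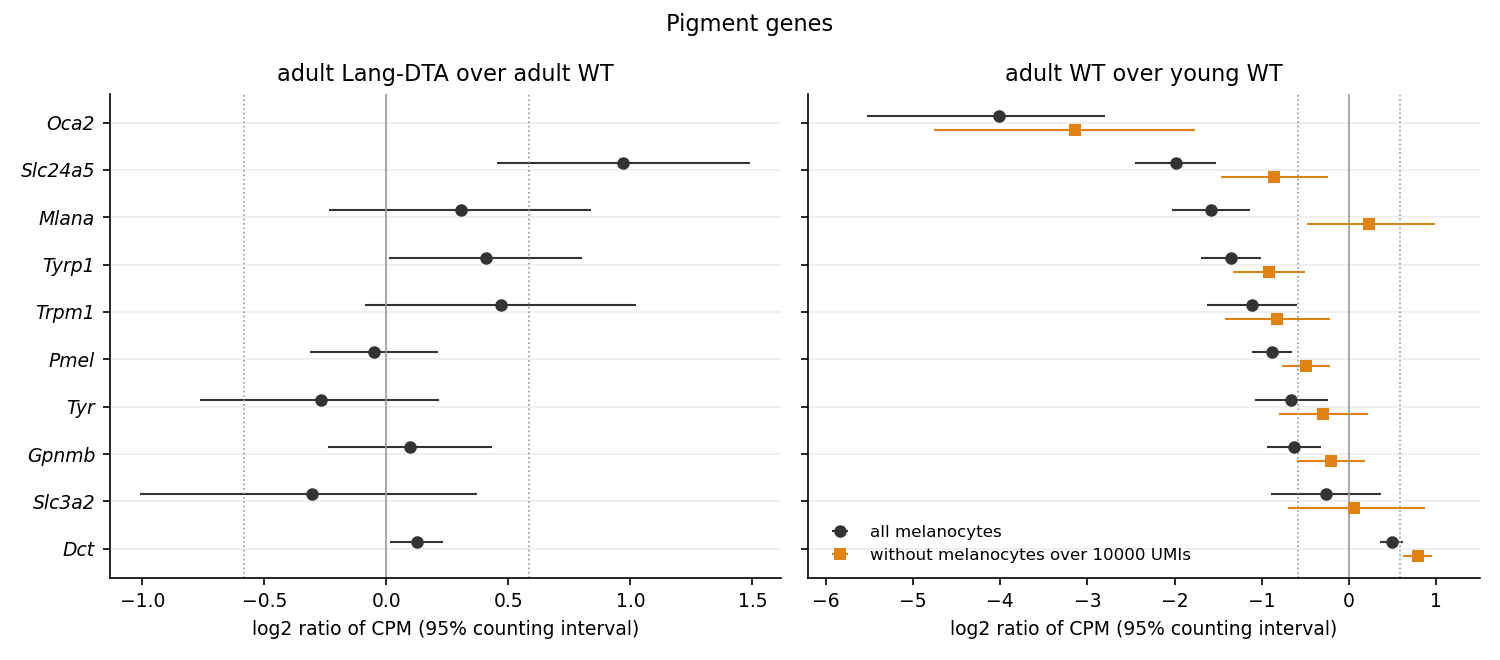
Log2 ratio of the pigment genes with exact 95% counting intervals, adult Lang-DTA over adult WT and adult WT over young WT, with the age comparison also shown without the 2 young cells over 10000 UMIs, with dotted lines at 1.5-fold. In the age comparison Oca2 stands at −4.02 and at −3.14 without those cells, and Mlana at −1.58 and at 0.23. Without those cells Oca2 rests on 6 adult and 19 young UMIs, under the minimum of 50.

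Of 6 measured transcription factors 0 were higher and 1 lower, Tfap2b at −0.59 with an interval that holds 0 (−1.23 to 0.06), and the median was −0.02. Pax3 and Zeb2 stood at 0.00, Sox10 at 0.08 and Mitf at −0.32 (−0.63 to −0.01). Without the 2 young cells over 10000 UMIs Mitf was the lower member, at −0.59 (−0.92 to −0.25), while Pax3 stood at −0.35 (−0.65 to −0.04) and Tfap2b at −0.04, and the median was −0.21. Of the receptors Ednrb, at 1083 CPM in adult WT and 1761 CPM in young WT (−0.70, −1.04 to −0.36), and Met, at 393 CPM and 920 CPM (−1.23, −1.76 to −0.71), were lower and the other 4 measured were within 1.5-fold. Without the 2 deep young cells 0 of the 6 were past 1.5-fold. Both measured members of melanosome transport were lower, Myo5a at −0.64 and Lyst at −0.98. Of 8 lysosome genes 3 were lower, the proton pump subunit Atp6v1b2 at −1.24, the protease Ctsl at −1.03 and Lamp1, a membrane protein, at −0.61, and without the deep cells 1 was.

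Immediate early genes were higher in adult WT in 8 of 17 members and lower in 1, with a median log2 ratio of 0.56. Egr1, a zinc finger factor, had 1381 CPM in adult WT and 368 CPM in young WT, a ratio of 1.91 (1.33 to 2.53). Atf3, a factor of the stress response, had 711 CPM and 158 CPM (2.17, 1.31 to 3.17), and Nr4a1, a nuclear receptor, 724 CPM and 250 CPM (1.54, 0.82 to 2.32). Ier2, Btg2, Fosb, Junb and Zfp36 lay between 0.68 and 1.27, and Ier3 at −0.75. Without the 2 deep young cells 5 were higher and 1 lower, with a median of 0.31. In keratinocytes and endothelial cells of the same libraries Egr1 differed by 0.22 and 0.32, Atf3 by 0.46 and 0.56 and Nr4a1 by 0.52 and 0.29. Over all remaining cells Atf3 differed by 0.68, past 1.5-fold. The metallothioneins Mt1 and Mt2 stood at 0.96 and 1.11, and Gpx4, a peroxidase of lipids, at −0.90, and at −0.33 (−1.08 to 0.47) without the 2 deep young cells. B2m of MHC class I stood at 0.57 (0.08 to 1.09), and at 0.22 (−0.31 to 0.78) without the cells with other types' UMIs. H2-D1 stood at 0.71 with an interval that holds 0 (−0.10 to 1.59). Without the 2 deep young cells both genes were at least 1.5-fold higher in adult WT, with a median of 0.79. Irf1, the only measured gene of the interferon list, stood at 0.95. It stood at 0.69 without the 2 deep young cells, and at 0.47 without the cells with other types' UMIs. Klf9, a target of glucocorticoids, stood at −0.86. Sparc, a matrix protein, stood at −3.35, but 26 of its 42 young UMIs lay in the cell with 56 fibroblast UMIs, and without the cells with other types' UMIs it was at −0.88.

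The 12 single genes that led on the higher side were Rps29, Rpl38, Egr1, Atf3, Rps28, Slc38a2, Rpl35, Malat1, Btg1, Hes1, Nr4a1 and Rpl6. Ribosomal protein genes were among the highest, Rps29 at 1191 CPM in adult WT against 223 CPM in young WT (2.41, 1.69 to 3.23) and Rpl38 at 1238 CPM against 250 CPM (2.31). They have near-identical copies elsewhere in the genome, so their counts are uncertain. Slc38a2, an amino acid transporter, had 1008 CPM and 342 CPM (1.56), and Hes1, a target of Notch, 501 CPM and 145 CPM (1.79). Hes1 stood at 0.80 (−0.17 to 1.90) without the cells with other types' UMIs. Of the 12, 9 were also at least 1.5-fold higher in keratinocytes and 8 in endothelial cells, all 5 ribosomal genes in both. No share over all measured genes stands beside these counts, so they are a description. Egr1, Atf3 and Nr4a1 were so in neither.

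On the lower side the 12 were Oca2, Slc24a5, Lars2, Cpne4, Gm42418, Mlana, Mgll, Tyrp1, Gstp1, Cdh13, Id2 and Met. Mgll, a lipase of monoacylglycerols, had 1299 CPM in adult WT and 3390 CPM in young WT (−1.38), and 118 of its 258 young UMIs lay in the deepest young cell. Without the 2 young cells over 10000 UMIs Mgll stood at −0.44, Gstp1 at −0.48 and Met at −0.27. Gstp1 had 501 CPM and 1261 CPM (−1.33), with 47 of 96 young UMIs in 1 cell. Cpne4, a copine, had 142 CPM and 604 CPM (−2.09, −2.91 to −1.31). Id2, an inhibitor of differentiation, had 230 CPM and 631 CPM (−1.45). Lars2, a mitochondrial tRNA synthetase, and Gm42418, a locus that overlaps ribosomal RNA, stood at −2.05 and −1.23 and were lower by at least 1.5-fold in keratinocytes and endothelial cells as well. By the tally 4 of the 12 were so in keratinocytes, 5 in endothelial cells and 3 in both. For Mlana and Tyrp1 the keratinocyte part is void, as both had 0 CPM in keratinocytes of both libraries. This leaves only Lars2 and Gm42418 in keratinocytes and in both. In endothelial cells Tyrp1 had only 0.0231 CPM in adult WT and 0.0803 CPM in young WT, and Oca2 0.116 and 0.181 CPM.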

How the data were processed

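Per the labels' protocols, ear tissue was dissociated with enzymes, and libraries were made with 10x Genomics 3′ chemistry. The authors deposited raw UMI counts per gene and barcode. The submitters' processing notes name Cell Ranger 8.01 and GRCm38, while 8.0.1 stands in the file headers. Whether intronic reads were counted, the annotation release and any correction for free RNA are not stated in these sources. Of 31053 gene IDs, 30934 were found in GENCODE M21.

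Barcodes with at least 500 genes, 1000 UMIs and at most 10% mitochondrial UMIs were kept. Doublets were called against simulated doublets (2 per barcode, 30 principal components, 50 neighbours, an expected 0.4% per 1000 barcodes), and calls were tallied but not removed. Keratinocytes had at least 1% of UMIs from Krt5 and Krt14 and endothelial cells at least 2 UMIs of Cdh5. UMIs were summed over the melanocytes of a library. Genes with at least 50 UMIs over both libraries were compared by the ratio of CPM, with the exact conditional 95% interval, and 1.5-fold was the threshold. The ratio computation was tested on simulated data.

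Named genes were the first 12 per direction, ranked by the interval limit nearest 0, with at least 30 CPM, 5 cells, and a direction shared by cells called male, by cells called female and by the sum without the cell with the most UMIs. They also had at least 0.2 of the level in the remaining cells. Xist, Tsix, Y-linked and mitochondrial genes were left out. The 25 genes that mark melanocytes were ranked by the lowest of 3 per-library ratios to the remaining cells. Members and gene lists were chosen with earlier results of these data known. Tools were matplotlib 3.10.9, scikit-learn 1.9.0, pandas 2.3.3, numpy 2.4.6 and scipy 1.17.1 under Python 3.11.15. A comparison with a further cell type is not reported here.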

Additional observations from a re-analysis of the deposited data

Results flagged for a closer look

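Outside the barcodes used, 3 barcodes met the melanocyte rule but failed the filter, 1 in each library. Each held 10 marker UMIs, in 698 UMIs of adult Lang-DTA, 1275 of adult WT and 942 of young WT. Their mitochondrial shares were 52.4%, 20.3% and 1.27%. Groups of 1 library leave no room to look for a sample far from the others.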

How the results depend on the processing

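With 1 library per condition the counts of genes past 1.5-fold depend on the minimum and on the cells used. In the comparison of adult Lang-DTA over adult WT, male-called melanocytes alone gave 36 genes higher and 55 lower, and female-called melanocytes 27 and 31. A minimum of 200 UMIs gave 2 and 1, a minimum of 1 UMI in each library 2427 and 1828, and a 2-fold threshold 14 and 21. Without melanocytes that hold UMIs of other types, 41 were higher. In the comparison of adult WT over young WT, male-called melanocytes gave 60 higher and 50 lower, and female-called melanocytes 64 and 30. A minimum of 200 UMIs gave 22 and 11, of 1 UMI in each library 2014 and 2524, and 2-fold 41 and 34. Fewer cells or a higher minimum leave fewer genes measured. The pigment list's median log2 ratio was 0.87 in adult Lang-DTA over adult WT among male-called cells, of which adult Lang-DTA had 3. Of the 13106 UMIs of these 3, 6822 lay in a cell that holds UMIs of another type. In adult WT over young WT the list's median was −1.68 among female-called cells, of which young WT had 4. Of the 20772 UMIs of these 4, 12469 lay in the deepest young cell. The median was −0.39 without the 2 melanocytes over 10000 UMIs, a setting chosen after the data had been seen. Without these cells Mlana turned to 0.23. For the other values the cause was not tested. Of the alternatives for gene lists, 142 of 149 moved a median by less than its margin, and for single named genes 335 of 384 kept direction and threshold. Part of these could not differ. Leaving out called doublets or asking for at least 8 marker UMIs removed no melanocyte. Leaving out cells over 10000 UMIs removed none from the adult libraries. The rule for named genes had already asked for the same direction in male-called and in female-called cells. All 12 for the melanocyte share stayed within its interval. No paired analysis was possible because each group holds 1 library. Replicates could not be left out for the same reason.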
